A study of Mus musculus with 6 samples.

Results

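The genes described here encode subunits of the NMDA receptor, and the RNA was purified from mouse cortex by a tag expressed in layer 5 pyramidal cells. The set has 6 genes, Grin1, Grin2a, Grin2b, Grin2c, Grin2d and Grin3a, of 18193 genes that the platform annotation names. A probe set was taken as a member where that annotation gave it exactly 1 gene symbol and the symbol was one of these 6. This gave 11 probe sets of 45037, which cover 5 of the 6 genes. Grin1, which encodes the obligatory subunit, had no probe set that met this rule and was not analysed here.

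An NMDA receptor is a glutamate-gated cation channel that needs a glycine-site co-agonist as well as glutamate, and magnesium blocks it until the membrane is depolarised. GRIN1 subunits bind glycine or D-serine and are joined by GRIN2 subunits, which bind glutamate and set the speed and the magnesium block of the channel, or by GRIN3 subunits, which lower its calcium permeability. In cortical neurons these receptors are best known for calcium entry that drives synaptic plasticity. Grin2b is strong early in life and Grin2a gains with age, Grin2c is best known from cerebellar granule cells, and Grin2d in the adult forebrain is best known from interneurons.

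There were 6 Affymetrix mouse arrays, 3 per treatment, each from a separate purification of cortical ribosomes (translating ribosome affinity purification, TRAP). All mice carried the Glt25d2 bacTRAP transgene, line DU9, and had been backcrossed from FVB to C57BL/6 for 3 to 5 generations. In this line the promoter region of Glt25d2 (now Colgalt2) drives a tagged ribosomal protein, so the RNA is enriched for messages on ribosomes of the cells in which that promoter is active. Treated mice drank fluoxetine, a serotonin reuptake inhibitor, at 0.167 mg/ml in 1% saccharine, and control mice drank 1% saccharine alone, both for 15 to 18 days. The labels give neither the age of the mice nor how many went into a purification, so p-values measure the spread between these purifications. The labels also contradict each other. Title, source and treatment fields name one treatment for an array and its description names the other, so groups are called fluoxetine-titled and vehicle-titled here, and every sign below would turn if the descriptions were right.

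Values are normalised intensities on a linear scale, and differences are log2 of fluoxetine-titled minus vehicle-titled. The array medians lay between 23.0 and 23.4, and a probe set entered the fit where at least 1 group mean reached 50. The number of arrays limits the precision. Markers of the labelled neurons were present on every array. Colgalt2 lay between 709 and 986, the layer 5 transcription factor gene Bcl11b between 3115 and 3718 and Fezf2, which specifies subcortical projection neurons, between 1961 and 3644. All 12 layer 5 markers listed were kept, with summed intensities of 43450.1 to 55166 on fluoxetine-titled and 46629 to 59178 on vehicle-titled arrays. Pcp4, between 24332 and 37135, was the largest part of these sums. Of the 12, 2 had a positive and 10 a negative difference, with a median of -0.081, where 47.8% of all genes kept had a positive one. The pairs disagreed, with list medians of 0.12, -0.14 and -0.21 by replicate number. In all 3 pairs 3 of the 12 were lower and 0 higher, where 13.1% and 10.9% of all genes kept were. In limma 0 of the 12 had an adjusted p under 0.05. In such bulk RNA, fewer cells of a type and less RNA per cell cannot be told apart. Glial markers were lowest on vehicle array 3. Relative to each gene's mean over the 6 arrays, 12 astrocyte markers averaged -0.64 there on the log2 scale, 7 oligodendrocyte markers -0.59 and 5 microglia markers -0.90, and on the other 5 arrays these averages lay between -0.12 and 0.34. RNA of other cells was on every array, with the oligodendrocyte gene Cnp between 12446 and 21583.

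By the intensity filter, a usable level was obtained for 4 subunit genes, Grin2b, Grin2c, Grin2d and Grin3a. No probe set of any of them passed the adjusted threshold between the treatments. Grin2d 1442328_at was under 50 on fluoxetine array 1 (38.8) and vehicle array 3 (47.9), which limits its difference. Grin2b had 2 probe sets with a usable level, of which 1442370_at was higher in all 3 fluoxetine-titled arrays than in any vehicle-titled one and 1457003_at was not. Grin2c, Grin2d and Grin3a had overlapping groups. Of the 11 member probe sets, 6 passed the intensity filter, of which 3 had a positive and 3 a negative difference, with a median of 0.0050. Over all 19073 probe sets kept, 47.1% had a positive difference and the median was -0.0096. In limma 0 of the 6 had an adjusted p under 0.05, as did 0% of all probe sets, with or without the replicate number as a block. At an unadjusted p under 0.05 the count was 1 of 6 without the block, where the background was 0.634%, and 1 of 6 with it, where the background was 4.02%.

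Grin2b encodes the GRIN2 subunit that binds CaMKII most tightly and gives slowly closing channels. Its probe set of highest mean, 1457003_at, had intensities of 567, 634 and 532 on fluoxetine-titled arrays 1, 2 and 3, against 505, 744 and 585 on vehicle-titled ones. The groups overlapped, and the highest and the lowest value both belonged to vehicle-titled arrays. The means were 578 ± 51.7 (SD, n = 3) and 611 ± 122 (n = 3), a log2 difference of -0.067 ± 0.18 (SE), with a 95% interval from -0.48 to 0.34 (limma adjusted p = 1). By replicate number the difference was 0.17, -0.23 and -0.14. The sign turned without vehicle array 2, to 0.084, and without both arrays numbered 2, to 0.015.

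The second Grin2b probe set above the filter, 1442370_at, had intensities of 209, 275 and 198 on fluoxetine-titled arrays, against 162, 175 and 179 on vehicle-titled ones. The groups did not overlap, with every fluoxetine-titled value the higher and the highest on fluoxetine array 2. The means were 228 ± 41.8 (SD, n = 3) and 172 ± 8.76 (n = 3), a ratio of 1.31 with a 95% interval from 1.01 to 1.70. The log2 difference was 0.39 ± 0.16 (SE), which did not pass over all probe sets (limma unadjusted p = 0.0458, adjusted p = 1). An exact two-sided permutation test gave p = 0.1, the smallest that 3 against 3 arrays allow. It was positive in each pair of arrays that share a number, at 0.37, 0.66 and 0.14. Without fluoxetine array 2 the difference was 0.24. It was the single member of the 6 kept with no overlap between groups, where 1.64% of all probe sets lay wholly above and 2.01% wholly below. It was also the single one higher in all 3 pairs, and 0 of 6 were lower in all 3 pairs, where the background was 10.9% higher and 13.4% lower. The mean of the vessel markers also differed between the groups. The 3 of 6 that were kept (Acta2, Cldn5 and Pdgfrb) averaged 0.17, 0.25 and 0.30 relative to their means on fluoxetine-titled arrays, against -0.21, -0.34 and -0.15 on vehicle-titled ones. Singly, Acta2 had no overlap between the groups, while Cldn5 and Pdgfrb overlapped, Cldn5 with its highest value (721) on vehicle array 3. Acta2 and Pdgfrb were higher in all 3 pairs, Pdgfrb by 0.25, 0.47 and 0.52. Cldn5 was not, at 0.36, 0.76 and -0.12. All 6 summed to 1371 to 1499.8 and to 907 to 1244, sums that rest mostly on the 3 kept genes. Pecam1, Flt1 and Kdr stayed below 50, none of them at 0. The differences of these unkept markers were -0.15 for Pecam1, -0.14 for Flt1 and 0.10 for Kdr. The part of vessel RNA in the values of 1442370_at was not tested.

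The differences of the Grin2b probe sets above the filter had opposite signs, at -0.067 for 1457003_at and 0.39 for 1442370_at. Their intervals overlapped, from -0.48 to 0.34 and from 0.0095 to 0.77, and neither passed the adjusted threshold. That the probe sets differ in their response is therefore not established. Within an array, the log2 ratio of 1442370_at to 1457003_at was -1.44, -1.20 and -1.43 on fluoxetine-titled arrays, against -1.64, -2.09 and -1.70 on vehicle-titled ones. The ratio was higher in every fluoxetine-titled array than in any vehicle-titled one, by a mean of 0.46 (exact two-sided permutation p = 0.1, the smallest possible), a comparison chosen after the values were seen. That the probe sets differ in their response is therefore not established. Where in the Grin2b transcript each probe set lies was not analysed here. The other 2 Grin2b probe sets stayed well under 50, between 11.9 and 18.1 for 1422223_at and between 8.74 and 9.16 for 1431700_at. Their differences were 0.0039 ± 0.17 and -0.035 ± 0.052, and the groups overlapped for both.

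**Figure D1:**
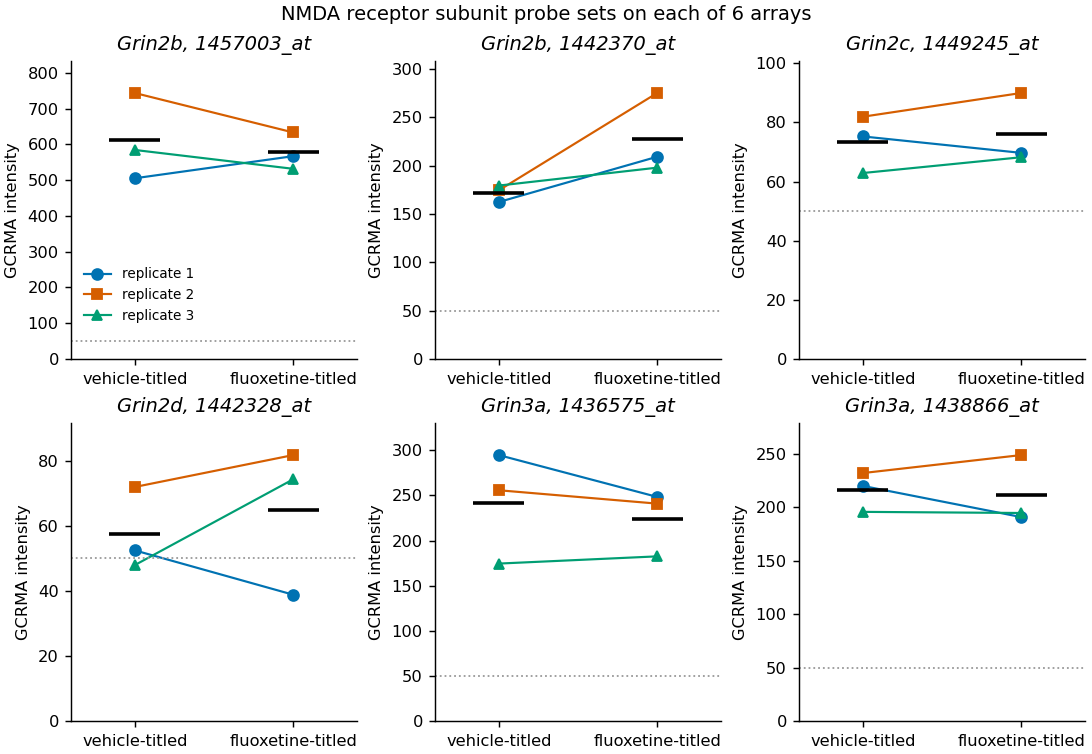
Intensity (vertical axis, linear, from 0) of the 6 subunit probe sets that passed the filter, in vehicle-titled and fluoxetine-titled arrays. Each line joins the arrays of 1 replicate number, black bars are group means (n = 3) and the dotted line is the filter of 50. The groups are apart for Grin2b 1442370_at, where 198 is the lowest fluoxetine-titled and 179 the highest vehicle-titled value, and they overlap in the other 5 panels.

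Grin2a encodes the GRIN2 subunit of the faster, mature receptor. Its 1 probe set, 1421616_at, had intensities of 4.34, 4.37 and 4.32 on fluoxetine-titled arrays, against 4.43, 4.45 and 4.40 on vehicle-titled ones. All 6 values lay far below the array medians and within 0.045 of each other on the log2 scale. The fluoxetine-titled values were all the lower ones, but the difference was -0.029 ± 0.050 (limma adjusted p = 1, over all probe sets without the filter), a size that carries no usable level of Grin2a. Whether Grin2a was on the ribosomes of these cells is therefore not measured here. The comparison of Grin2a with Grin2b within each array, made because both compete for GRIN1 in the receptor, rests on Grin2b alone for the same reason. Log2 Grin2a minus log2 Grin2b (1457003_at) differed by 0.038 between the treatments (exact two-sided permutation p = 0.8), and by -0.42 with 1442370_at in its place (exact permutation p = 0.1, the smallest possible). The 0.038 turned to -0.11 without vehicle array 2, to -0.015 without fluoxetine array 3 and to -0.044 without both arrays numbered 2.

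Grin2c had intensities of 69.7, 89.9 and 68.2 on fluoxetine-titled arrays, against 75.3, 81.9 and 62.9 on vehicle-titled ones. The groups overlapped, and both arrays numbered 2 were the highest. The means were 75.9 ± 12.1 (SD, n = 3) and 73.3 ± 9.66 (n = 3), a log2 difference of 0.047 ± 0.17 (SE), with a 95% interval from -0.35 to 0.45 (limma adjusted p = 1). By replicate number it was -0.11, 0.13 and 0.12. The sign turned without fluoxetine array 2 (-0.081) and without vehicle array 3 (-0.060). Vehicle array 3 held both the lowest Grin2c value and the lowest mean of the astrocyte markers, and fluoxetine array 2 the highest of each. On fluoxetine array 3 they differed, with Grin2c at -0.12 and the astrocyte mean at 0.076. Vehicle array 3 was also the lowest for the means of the interneuron, oligodendrocyte and microglia markers. All 12 astrocyte markers were kept and none was at 0, with summed intensities of 28503 to 37023 on fluoxetine-titled and 20874 to 36193 on vehicle-titled arrays. Slc1a3, an astrocyte glutamate transporter gene, had 372, 499 and 382 against 445, 510 and 213, and Aldoc, a glycolytic enzyme gene strong in astrocytes, had its lowest value, 9511, on vehicle array 3 too. Vehicle array 3 held the lowest value for 10 of the 12 markers, and for the other 2, Slc1a2 (2207) and Atp1b2 (1271), it was fluoxetine array 1. The part of such RNA in the Grin2c values was not tested. Of 4 genes listed for other brain regions, Gabra6 of cerebellar granule cells and Pcp2 of Purkinje cells stayed below 50 in both group means. Cbln1, a granule cell gene that is not limited to the cerebellum, lay between 301 and 380.3 and Calb2, which cortical interneurons also express, between 179 and 349.6.

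Grin2d was the subunit gene that varied most between arrays. Its probe set of highest mean, 1442328_at, had intensities of 38.8, 81.7 and 74.3 on fluoxetine-titled arrays, against 52.4, 71.9 and 47.9 on vehicle-titled ones. Fluoxetine array 1 held the lowest and fluoxetine array 2 the highest value, so the vehicle-titled values lay inside the range of the fluoxetine-titled ones. The means were 64.9 ± 22.9 (SD, n = 3) and 57.4 ± 12.8 (n = 3), a log2 difference of 0.13 ± 0.31 (SE), with a 95% interval from -0.59 to 0.85 (limma adjusted p = 1). By replicate number it was -0.43, 0.18 and 0.63. The sign turned without fluoxetine array 2 (-0.074), without fluoxetine array 3 (-0.0055) and without both arrays numbered 3 (-0.12), and without fluoxetine array 1 the difference was 0.46. With the 2 values under 50 (38.8 and 47.9) set to 50 it was 0.23. The other Grin2d probe set, 1421393_at, lay between 3.05 and 3.10 with exactly the same value on 3 of the 6 arrays, and gives no level.

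On fluoxetine array 1, 11 interneuron markers averaged -0.014 relative to their means, while Grin2d lay at -0.61. The markers differed among themselves there. Gad2 (688) and Lhx6 (83.1) had their lowest value of the 6 arrays on fluoxetine array 1, and Slc32a1 had 1433 there against 2986 on fluoxetine array 2, while Cck had its highest (13686). Cck was highest on both arrays numbered 1 (13686 and 12797), and so was the layer 5 marker Pcp4 (32186 and 37135). Cck is part of the interneuron mean and sums, and whether its RNA came from interneurons was not tested. On vehicle array 3 the interneuron mean and Grin2d were both low, at -0.41 and -0.30. Of the 12 interneuron markers 11 were kept (Dlx5 stayed below 50) and none was at 0, and their summed intensities were 36013 to 40574 on fluoxetine-titled and 32687 to 41359 on vehicle-titled arrays. Gad1, which encodes a GABA-synthesising enzyme, lay between 13696 and 19982. Pvalb, a calcium buffer gene of fast-spiking interneurons, lay between 1429.8 and 2423. The part of interneuron RNA in the Grin2d values was not tested.

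**Figure D2:**
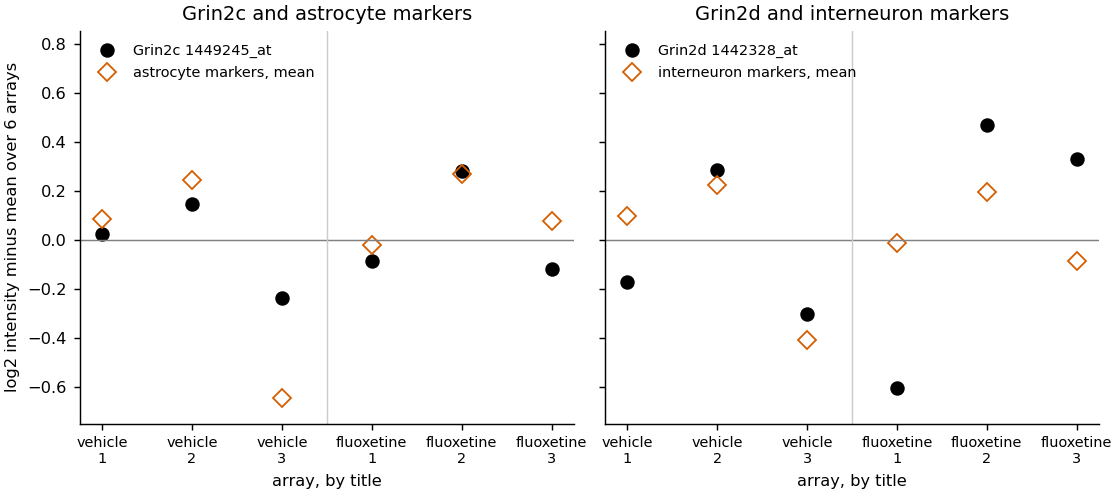
Log2 intensity minus the mean over the 6 arrays (vertical axis) by array, for Grin2c beside the mean of 12 astrocyte markers (left) and for Grin2d beside the mean of 11 interneuron markers (right). Vehicle array 3 is the lowest for the mean of both sets of markers and for Grin2c, while Grin2d is lowest on fluoxetine array 1, at -0.61, where the mean of the interneuron markers is at -0.014.

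Grin3a encodes a subunit that binds glycine and is known for receptors of low calcium permeability. Its probe set of highest mean, 1436575_at, had intensities of 248, 241 and 182 on fluoxetine-titled arrays, against 295, 256 and 174 on vehicle-titled ones. Both arrays numbered 3 were low and the other 4 were higher, whatever the treatment. The means were 224 ± 36.1 (SD, n = 3) and 242 ± 61.4 (n = 3), a log2 difference of -0.090 ± 0.23 (SE), with a 95% interval from -0.63 to 0.45 (limma adjusted p = 1). By replicate number it was -0.25, -0.086 and 0.065, and the sign turned without vehicle array 1 (0.071) and without fluoxetine array 3 (0.051).

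The second Grin3a probe set, 1438866_at, had 191, 249 and 195 on fluoxetine-titled arrays, against 220, 232 and 196 on vehicle-titled ones. The groups overlapped and the highest values were on the arrays numbered 2. The difference was -0.037 ± 0.16, with a 95% interval from -0.40 to 0.33, and its sign turned without any one of fluoxetine arrays 1 and 3 and vehicle array 2 (0.031, 0.017 and 0.016) and without both arrays numbered 1 (0.047). Both Grin3a probe sets thus overlapped between the treatments, and they differed in which replicate number was high. The third, 1458378_at, stayed under 50, between 15.5 and 22.9, with a difference of 0.083 ± 0.19. Grin3b, the remaining subunit gene of the family and no member here, also stayed under 50, between 22.0 and 30.0.

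**Figure D3:**
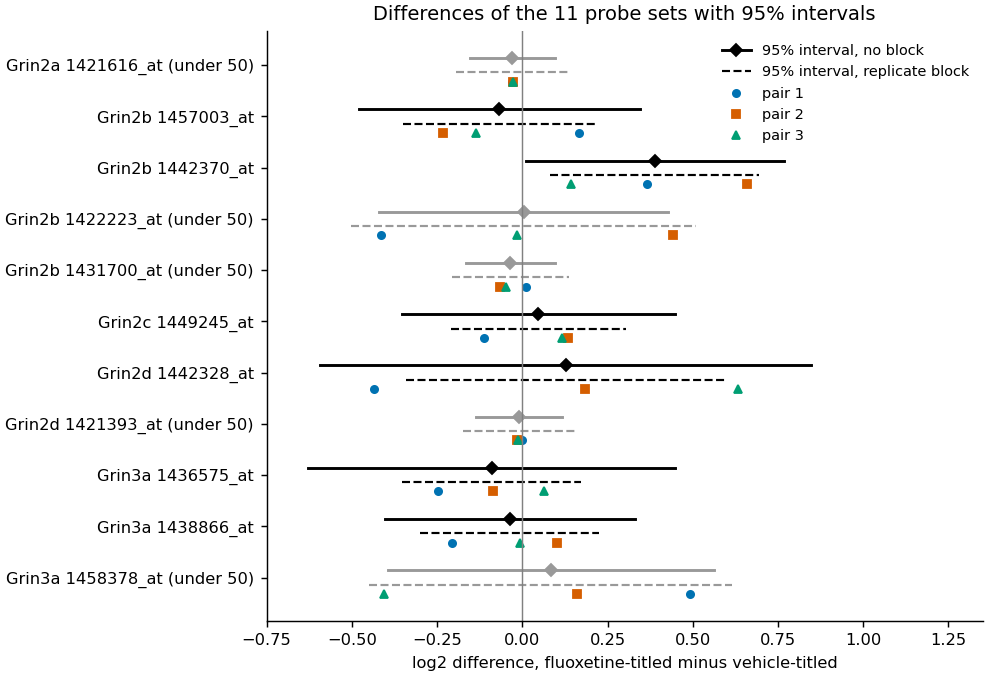
Log2 difference, fluoxetine-titled minus vehicle-titled (horizontal axis), of the 11 subunit probe sets, with the 95% interval without the block (solid, diamond at the estimate) and with the replicate number as a block (dashed), and the 3 differences by replicate number (coloured). Grey marks the 5 probe sets under an intensity of 50. Only Grin2b 1442370_at has an interval that leaves out 0, from 0.0095 to 0.77 without the block and from 0.083 to 0.69 with it.

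Most of the variation between arrays followed the replicate number for 5 of the 6 probe sets kept, all but Grin2b 1442370_at. For Grin3a 1436575_at, 91.7% of the log2 sum of squares over the 6 arrays fell on the replicate number and 2.74% on the treatment. The replicate number held 87.5% for Grin2c, 79.0% for Grin3a 1438866_at, 74.8% for Grin2b 1457003_at and 65.3% for Grin2d, and the treatment between 1.67% and 3.42% of these 4. Grin2b 1442370_at stood the other way round, with 20.1% on the replicate number and 61.7% on the treatment. The medians over all probe sets kept were 69.9% and 5.35%. The replicate number has 2 degrees of freedom and the treatment 1, so these shares are a description. For the 6 probe sets the 95% interval of the difference stayed within 2-fold in either direction, the widest being that of Grin2d, from 0.663 to 1.80 as a ratio.

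**Figure D4:**
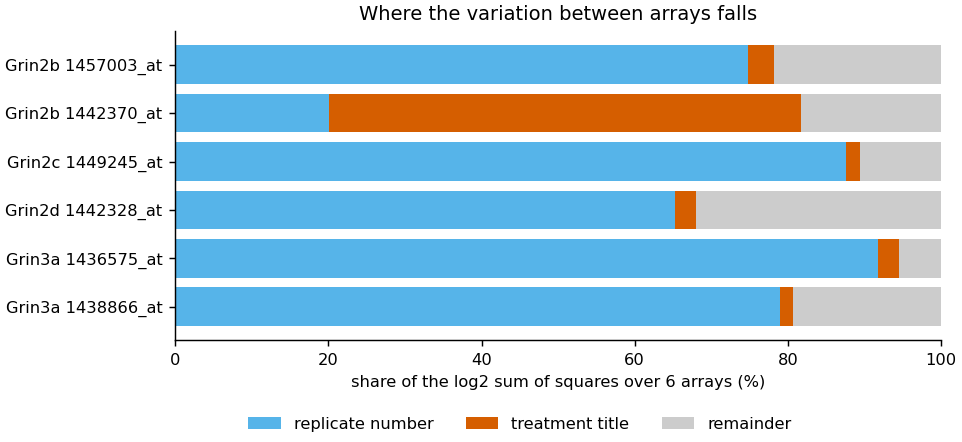
Share of the log2 sum of squares over 6 arrays (horizontal axis, percent) that falls on the replicate number, the treatment title and the remainder, for the 6 subunit probe sets that passed the filter. The replicate number holds between 65.3% and 91.7% for 5 of them, and 20.1% for Grin2b 1442370_at.

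The genes of most similar pattern were found by the root-mean-square distance between log2 values centred on each gene's mean over the 6 arrays, among 10829 other genes with 1 probe set each. For Grin2b (1457003_at) they were Chadl, Pxmp4 and Harbi1, at distances of 0.032, 0.032 and 0.042, where the median gene lay at 0.26. Grin2c was closest to Stard8 (0.034), the axonal adhesion gene Cntn2 (0.047) and the aminotransferase gene Kyat3 (0.049). Grin2d, with its wider swings, was closest to Arrdc3 (0.089), the membrane linker gene Msn (0.091) and Phkg1 (0.11), against a median gene at 0.43. For Grin3a (1436575_at) they were the sulfurtransferase gene Mpst (0.035), 2610035D17Rik (0.045) and Arhgef10 (0.049). Among the subunit probe sets the closest were Grin2c and Grin3a 1438866_at, at 0.061, while the Grin3a probe sets kept lay 0.23 and the Grin2b ones 0.28 apart. With 6 arrays that share replicate effects, a short distance is a description only.

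Genes that act with the receptor were described from 4 lists, 1 probe set per gene, and in none did a gene pass the adjusted threshold in either direction, with or without the block. The smallest limma adjusted p was 1 without and 0.993 with it. Over all 10830 genes kept, 47.8% had a positive difference, 10.9% were higher and 13.1% lower in all 3 pairs, and the median was -0.0068.

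Scaffolds and adaptors hold the receptor at the synapse and carry it there. Of 18 kept, 13 had a positive difference and 5 a negative one, with a median of 0.022, and Dlg3, Dlg4 and Dlgap1 were higher in all 3 pairs while 0 were lower. Dlg4 encodes PSD-95, which binds the tail of GRIN2 subunits. It had 204, 256 and 279 on fluoxetine-titled arrays, against 194, 176 and 262 on vehicle-titled ones, overlapping groups with a difference of 0.24 ± 0.20, the highest of the list. Dlg1, another member of that scaffold family, had the lowest, -0.12 ± 0.15. Neto1, which encodes a partner protein of NMDA and kainate receptors, had -0.053 ± 0.16. The scaffold gene Dlgap2, named after its values were seen, had 104 and 135 on the arrays numbered 1 and between 807 and 1024 on the other 4. Its difference of 0.018 thus had a standard error of 1.03 without the block and of 0.15 with the replicate number as a block. The list median turned to -0.038 without vehicle array 1, to -0.028 without fluoxetine array 3 and to -0.0070 without both arrays numbered 3.

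Kinases, phosphatases and other signalling genes act on the receptor or downstream of its calcium. Of 18 kept, 6 had a positive and 12 a negative difference, with a median of -0.077. In all 3 pairs 6 were lower, namely Camk2a, Fyn, Ppp3cb, Ppp3r1, Prkcb and Ptk2b, and Ptpn5, which encodes a phosphatase that acts on GRIN2B, was higher in all 3. Camk2a, the kinase subunit that docks on GRIN2B, had 1658, 1913 and 1433 against 1742, 1981 and 1652, overlapping groups with a difference of -0.11 ± 0.16. Ppp3cb, a calcineurin catalytic subunit gene named after its values were seen, had 19752, 19496 and 18895 against 22417, 23798 and 20754, with every fluoxetine-titled value below every vehicle-titled one and a difference of -0.20 ± 0.12 (limma adjusted p = 1). Rasgrf2, a calcium-dependent exchange factor gene, had the lowest difference, -0.26 ± 0.23, and Camk2d the highest, 0.13 ± 0.17. Without vehicle array 2 the list median was 0.017.

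Genes of co-agonist supply and removal make or move D-serine and glycine. Of 10 kept, 6 had a positive and 4 a negative difference, with a median of 0.075, and Slc6a9 was higher and Shmt1 and Slc38a1 lower in all 3 pairs. Dao, Slc6a5 and Slc1a5 stayed below 50. Srr encodes serine racemase, which makes D-serine, and had 1423, 1284 and 1048 against 1485, 1363 and 1027, a difference of -0.040 ± 0.19. Slc7a10, which encodes a small neutral amino acid exchanger that carries D-serine, had the highest, 0.33 ± 0.31, and Shmt1, which interconverts serine and glycine, the lowest, -0.26 ± 0.21. Shmt1 had 46.7, 38.7 and 40.1 against 67.9, 45.2 and 40.6. It passed the filter only through the vehicle-titled mean of 51.2, and values under 50 give no reliable difference. Slc7a10 had 69.3 on vehicle array 3, where the glial markers were lowest, and between 134 and 156 on the other 5 arrays. Without that array the list median was -0.086, and the part of glial RNA in it was not tested. The median was also negative without fluoxetine array 2 (-0.020), without both arrays numbered 3 (-0.029) and with the 3 genes under 50 included (-0.019).

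Of 7 regulators of subunit gene transcription, 6 had a positive difference and 1, the repressor gene Rest (-0.036 ± 0.34), a negative one, with a median of 0.082. Rest was under 50 on fluoxetine array 1 (31.4), vehicle array 1 (42.2) and vehicle array 3 (49.3), which limits its difference. Creb1, Hdac2 and Tbr1 were higher in all 3 pairs. Tbr1, a cortical transcription factor gene whose protein is known to act on Grin2b, had 1702, 3007 and 2920.0 against 1636, 1889 and 2167, overlapping groups with a difference of 0.39 ± 0.25, the highest of this list (limma adjusted p = 1).

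**Figure D5:**
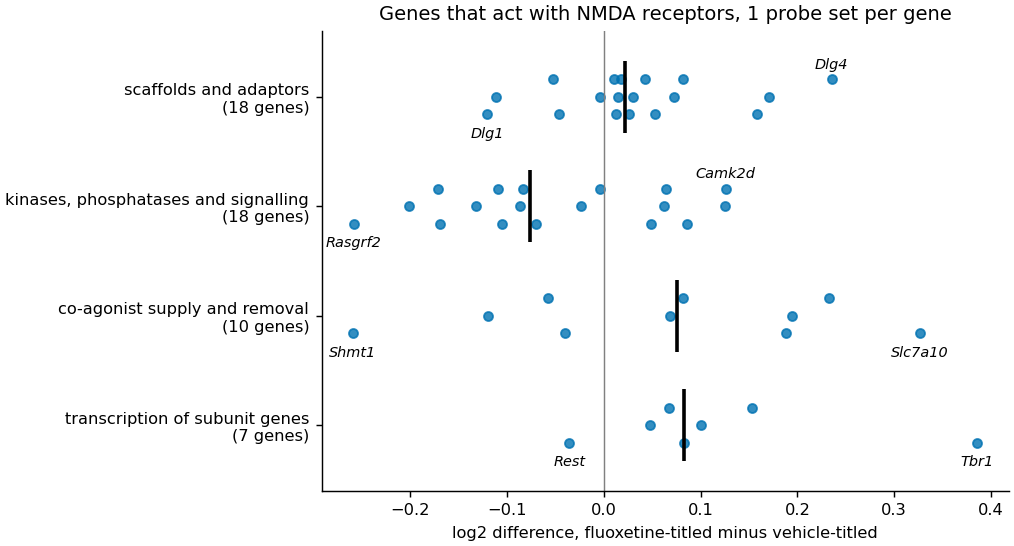
Log2 difference, fluoxetine-titled minus vehicle-titled (horizontal axis), of each kept gene (point) of 4 lists of genes that act with NMDA receptors, with the list median (black bar) and the names of the lowest and highest gene. The medians are 0.022, -0.077, 0.075 and 0.082, from top to bottom, and no point passed the adjusted threshold.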

How the data were processed

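Cortical TRAP RNA was extracted with Trizol-LS, DNase-treated and amplified in 2 cycles from 15 ng, per the labels' protocols. The authors deposited 1 GCRMA intensity per probe set and array, per the submitters' processing notes. GCRMA corrects background from probe sequence and normalizes between arrays, and its version is not given in the sources used here. Of 45101 probe sets, 64 controls were left out, and 19073 had a group mean of at least 50, a filter taken from the submitters' advice. The advice to keep a published list of probe sets was not followed here. The platform annotation gave 1 symbol to 34945 probe sets, several to 932 and did not list 9160, which stayed unnamed.

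The difference between treatments, two-sided, was estimated on log2 intensities in limma 3.58.1 under R 4.3.3 (lmFit, eBayes). P-values were adjusted by Benjamini-Hochberg across the 19073 probe sets. Exact permutation tests used all 20 assignments of 3 of 6 arrays. The code was tested on simulated data, which for limma meant the fit without the block on arrays without shared replicate effects. A gene was represented by its probe set of highest mean. The text names every member probe set, Dlg4, Camk2a, Srr and Neto1, the highest and lowest gene of each list, the 3 genes of most similar pattern and a few markers. Shank1 was under the filter, and some genes of the lists are not reported here. Members and lists were chosen with earlier results of these data known.

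The titles' replicate numbers pair the arrays. Deviations from the group means correlated at 0.74, 0.60 and 0.50 between arrays of equal number and between -0.59 and 0.26 otherwise. The labels leave the meaning of a number unsaid. Values are from the fit with no block, and the block is an alternative, beside other filters, quantile normalization, a floor of 50, a trended prior and leaving out arrays or pairs. Standard errors without the block include what arrays of equal number share. Their median over the probe sets kept was 0.18, against 0.11 with the block.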

Additional observations from a re-analysis of the deposited data

How the results depend on the processing

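In limma, 0 probe sets, and 0 of the members, passed an adjusted p of 0.05 in the fit as reported (121 of 19073 at an unadjusted p under 0.05), and also with the replicate block, without the filter, with the stricter filter, under quantile normalization, with the floor of 50, with a trended prior and with each array or pair left out. With the replicate block the difference of Grin2b 1442370_at was again 0.39, and the pairing changed no call of a member. A floor of 50 leaves no difference for the 5 member probe sets under it and was not run for them. It moved Grin2d 1442328_at from 0.13 to 0.23, and no Grin2a probe set reaches 50.

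With 1 array or 1 pair left out, the log2 difference ran from -0.20 to 0.084 for Grin2b 1457003_at, from 0.24 to 0.51 for 1442370_at, from -0.21 to 0.21 for 1422223_at, from -0.081 to 0.13 for Grin2c, from -0.12 to 0.46 for Grin2d 1442328_at, from -0.31 to 0.071 for Grin3a 1436575_at, from -0.16 to 0.047 for 1438866_at and from -0.12 to 0.33 for 1458378_at. The 3 probe sets not listed, all under an intensity of 10, kept their sign, with ranges from -0.033 to -0.025 for Grin2a, from -0.058 to -0.019 for Grin2b 1431700_at and from -0.014 to -0.0050 for Grin2d 1421393_at. So 4 of the 11 kept their sign in every such fit, 1442370_at among them, and 7 did not. The Grin2a and Grin2b contrast ran from -0.11 to 0.17, and was -0.42 with the other Grin2b probe set. The list medians ran from -0.038 to 0.13 for scaffolds, from -0.11 to 0.017 for kinases and phosphatases, from -0.086 to 0.13 for co-agonist genes and from 0.045 to 0.18 for transcription regulators. Without the filter the co-agonist median was -0.019. Under quantile normalization the kinase median was -0.059, Grin2b 1431700_at turned to 0.00087 and Grin2d 1421393_at to 0.0020. The cause of these shifts was not tested. An intensity under 50 gives no reliable difference, which limits Grin2a, Grin3b and both probe sets of Grin2d.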
